A study of Mus musculus with 18 samples.

Results

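Cultures of mouse embryo fibroblasts (MEFs), connective tissue cells grown from embryos, with 3 copies of chromosome 13 were compared with cultures of normal chromosome complement. The comparison used 8 of the 18 arrays of the series. It comprised the 4 arrays titled Ts13 and the 4 arrays titled Wt whose titles carry the same first number (MEF-776, MEF-780 or MEF-666), and each Ts13 array was set against the Wt array or arrays of its own first number. Under MEF-776 stood Ts13 1 and Wt 4, under MEF-780 stood Ts13 2, Ts13 3, Wt 5 and Wt 6, and under MEF-666 stood Ts13 4 and Wt 7. Ts13 2 and Ts13 3 therefore share both of their controls. All cultures were MEFs grown for 2 passages, and labelled cRNA was made from 5 ug of total RNA on a one-colour Affymetrix array. The sources used here give neither the meaning of the first number, nor the strain, age or sex of the embryos, nor how the extra chromosome arose, nor whether each line came from its own embryo. The p-values therefore measure the spread between these arrays.

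An extra copy of a chromosome raises the gene dose of every locus it carries from 2 to 3, and mRNA in trisomic cells is known to follow gene dose for many genes, which would give 1.5-fold more mRNA, or 0.585 on the log2 scale. Some genes are known to depart from the dose where feedback controls their mRNA. Genes on the other chromosomes keep their dose. In fibroblasts of this kind, trisomy is known to slow proliferation.

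The deposited values are log2 signals, and array medians were 5.70, 5.91, 5.11 and 5.21 in Ts13 1 to Ts13 4, against 5.78 to 5.91 in the 4 Wt arrays. The RNA of 2 trisomic cultures was degraded. For Gapdh, the log2 signal of the control probes near the 3' end exceeded that near the 5' end by 0.00, -0.14, 6.94 and 5.57 in Ts13 1 to Ts13 4, against -0.17 to 0.69 in the Wt arrays. Ts13 1 and Ts13 2 are called the intact arrays below and were also compared alone with Wt 4, Wt 5 and Wt 6. All 15 measured fibroblast markers reached a log2 signal of 6 on every one of the 8 arrays, and none of the 7 erythroid and 7 liver markers did on any. Of 20 macrophage markers, 8 reached 6 in Ts13 4, against 0 or 1 in each of the other 7 arrays. The log2 of the summed macrophage signals was 7.71 to 11.89 in Ts13 arrays and 7.65 to 8.70 in Wt arrays; their part in the results was not tested.

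Transcripts of the sex chromosomes separated the arrays in another way; these genes were chosen after their values were seen. Xist, the RNA that silences an X chromosome in female cells, had log2 signals of 2.47, 2.20, 2.56 and 11.17 in Ts13 1 to Ts13 4, against 2.35, 13.64, 13.43 and 13.18 in Wt 4 to Wt 7. Eif2s3y, a translation factor gene of the Y chromosome, had 10.89, 10.68, 11.30 and 3.24 in Ts13 1 to Ts13 4, against 10.79, 3.13, 2.88 and 2.85 in Wt 4 to Wt 7. Under MEF-776 and under MEF-666 the trisomic and control arrays were alike in which of these transcripts was present, though under MEF-666 Xist was lower in Ts13 4 than in Wt 7. Under MEF-780, both Ts13 arrays had the Y-linked signal without Xist, and both Wt arrays had Xist without the Y-linked signal. Trisomy and this difference cannot be told apart within MEF-780 for any gene, on the autosomes or on the X chromosome. Both fits below include arrays of MEF-780, so the limit holds for their differences and calls too. For the X-linked genes named, values under MEF-776 and MEF-666 are given beside them.

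Genes of chromosome 13 were higher in every trisomic culture. Of 12394 genes on the array, 459 lie on chromosome 13, and 278 of these passed the filter of a mean log2 signal of at least 4, as did 7105 genes elsewhere. The median difference of the 278 genes, Ts13 minus its own Wt, was 0.57, 0.67, 0.78 and 0.94 on the log2 scale in Ts13 1 to Ts13 4. The corresponding medians of 6856 genes on the other autosomes were -0.11, 0.14, 0.05 and 0.00. The shares of chromosome 13 genes above 0 were 95.7%, 82.0%, 82.7% and 84.9%. In the intact fit, a limma model of the 5 intact and control arrays with the first number as a term, the median of chromosome 13 genes was 0.58, which is 1.5-fold, with quartiles of 0.31 and 0.90. In the corresponding fit of 8 arrays the median was 0.67, which is 1.59-fold.

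**Figure D1:**
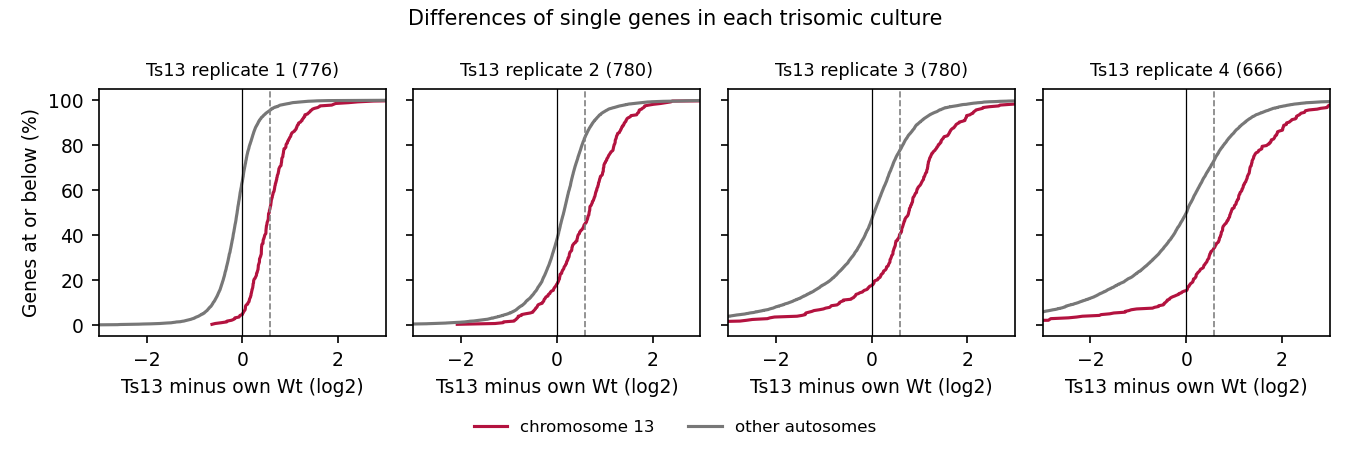
Cumulative share of genes (%) at or below a given difference, Ts13 minus the Wt arrays of its own first number (log2), one panel per trisomic array, for chromosome 13 (red) and the other autosomes (grey); the dashed line marks 1.5-fold and the axis is limited to 3 on either side. The chromosome 13 curve lies to the right of the grey curve in each panel, with medians of 0.57, 0.67, 0.78 and 0.94, and both curves are wider in Ts13 3 and Ts13 4, the arrays of degraded RNA.

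The chromosome was also summarised per array. Its shift, the mean log2 signal of its tested genes minus that of genes on the other autosomes, was 0.75, 0.53, 0.86 and 1.11 above the own Wt arrays in Ts13 1 to Ts13 4, a mean of 0.81 ± 0.24 (SD, n = 4). The exact two-sided permutation test within first numbers gave p = 0.0833, the smallest that its 24 arrangements allow. Chromosomes 2, 10 and 15 also reached that p, at mean shifts of only -0.06, -0.11 and -0.13. The mean shifts of all chromosomes other than 13, X included, lay between -0.23 for chromosome 19 and 0.15 for chromosome 14. In single arrays they reached -0.60 for chromosome 19 and 0.49 for X, both in Ts13 4. In the intact arrays the single values lay between -0.26 for X and 0.095 for chromosome 19, both in Ts13 2. The mean shift of chromosome 13 was 0.63 in the intact arrays and 0.93 under MEF-776 and MEF-666 alone. Without the filter on low signals it was 0.52.

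**Figure D2:**
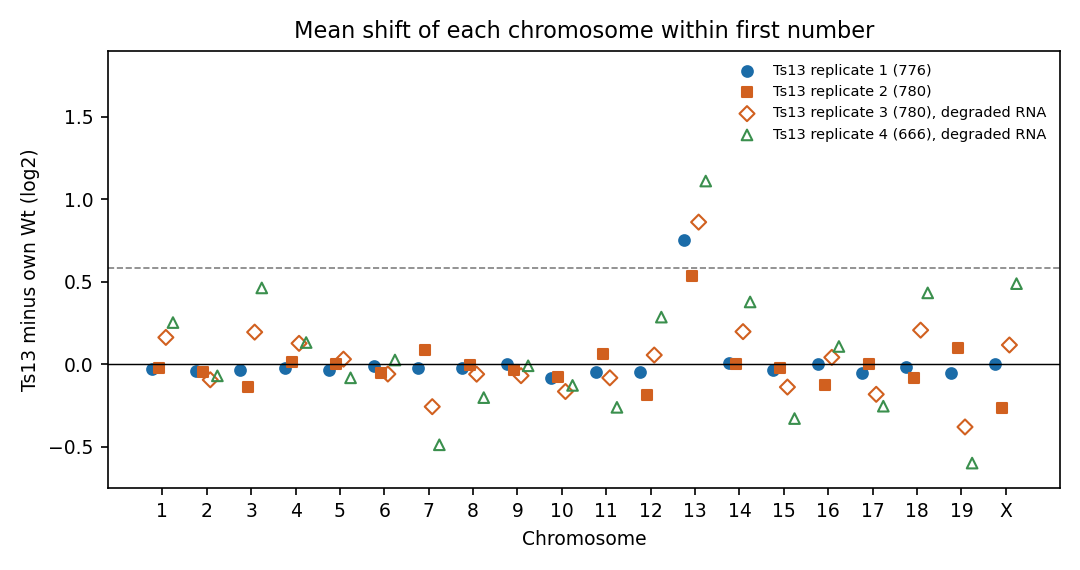
Shift of each chromosome (horizontal axis) as the mean log2 difference, Ts13 minus own Wt, relative to the other autosomes (vertical axis, log2), one symbol per trisomic array, coloured by first number and open for degraded RNA; the dashed line marks 1.5-fold. Chromosome 13 stands at 0.53 to 1.11. The means of the other chromosomes lie between -0.23 and 0.15 and their single symbols between -0.60 and 0.49, with the widest scatter in the open symbols.

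The difference extended along the chromosome. Of 6 consecutive runs of 46 or 47 tested neighbouring genes, from the run of Gdi2 to BC005537 at one end to the run of Foxd1 to Zfp131 at the other, each had a positive median in each of the 4 trisomic arrays. The medians in the intact fit were 0.74, 0.56, 0.57, 0.68, 0.60 and 0.54 in chromosomal order. The run of Cap2 to Fam193b had the smallest median in Ts13 4, at 0.30. By signal, the intact median was 0.37 in the 55 genes with a mean log2 signal of at least 12, against 0.56 to 0.83 in the classes of lower signal.

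Single genes were tested with limma across all 7383 genes. In the fit of 8 arrays 0 of 7383 genes (0%) passed an adjusted p of 0.05, and 1148 (15.5%) had an unadjusted p under 0.05, of which 705 were higher (9.55%) and 443 lower (6%). On chromosome 13 alone, 155 were higher (55.8%) and 1 lower (0.36%), against 7.74% and 6.22% of genes elsewhere. The lowest adjusted p was 0.0814, shared by Mdk and Mest. Arrays were therefore also counted directly. All 4 Ts13 arrays lay above every Wt array of their own number in 166 of 278 chromosome 13 genes (59.7%), against 767 of 7105 genes elsewhere (10.8%) and 933 of all genes (12.6%). All 4 lay below in 2 chromosome 13 genes (0.719%), against 601 genes elsewhere (8.46%) and 603 of all genes (8.17%). In the 2 intact arrays alone, 205 chromosome 13 genes lay above (73.7%) and 5 below (1.8%), against 22.1% and 22% of genes elsewhere, and 24.1% and 21.3% of all genes. In the intact fit 42 of 7383 genes (0.569%) passed, 20 higher (0.271%) and 22 lower (0.298%). Of these, 8 lie on chromosome 13 (2.88% of its genes), all higher in Ts13, and 34 elsewhere (0.479%), 12 higher and 22 lower. This count ranged between 0 and 367 under other settings, so the 42 genes are described by their array values first. Of the 42, 3 reached the filter through their Ts13 signals alone and 3, Cpxm2 among them, through their Wt signals alone; their calls are not support for a difference.

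The 8 chromosome 13 genes that passed in the intact fit were Ahrr, Tspan17, Gpr137b, Nln, Tmem14c, Glrx, Epdr1 and Serpinb6a. Gpr137b, which encodes a lysosomal membrane protein, had 10.82, 10.88, 11.17 and 11.55 in Ts13 1 to Ts13 4, against 9.56, 8.99, 9.19 and 9.64 in Wt 4 to Wt 7. The groups did not overlap, and the difference was 1.56 ± 0.23 (SE) in the intact fit (adjusted p = 0.0375) and 1.76 ± 0.21 with 8 arrays (adjusted p = 0.0925). Nln, the peptidase neurolysin, had 10.15, 10.47, 10.54 and 10.25 in Ts13, against 8.90, 8.62, 8.88 and 8.96 in Wt. Its fitted difference was 1.52 in both fits, with an adjusted p of 0.0453 in the intact fit, and the trisomic arrays differed little among themselves. Glrx, the thiol reductase glutaredoxin, had 10.41, 10.11, 10.26 and 11.24 in Ts13, against 8.83, 8.71, 8.88 and 9.14 in Wt. All trisomic arrays lay above all controls, by 1.43 ± 0.22 in the intact fit (adjusted p = 0.0453); the probe sets of Glrx differ in sign with 8 arrays, and their mean gave 0.65. For Gpr137b the mean of probe sets gave 0.94.

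Epdr1, an ependymin-related protein, had 10.81, 11.32, 11.16 and 11.94 in Ts13, against 9.53, 9.97, 10.00 and 9.73 in Wt. Serpinb6a, an intracellular inhibitor of serine proteases, had 14.18, 14.72, 13.94 and 14.02 in Ts13, against 13.31, 13.14, 13.19 and 13.25 in Wt. Tmem14c, a mitochondrial membrane protein needed for haem synthesis in erythroid cells, had 10.60, 11.39, 10.48 and 10.68 in Ts13, against 9.47, 9.71, 9.75 and 9.55 in Wt. None of these 3 overlapped between the groups, and the intact differences were 1.31, 1.26 and 1.44, each with an adjusted p between 0.0375 and 0.0416. Ahrr, which encodes the repressor of the aryl hydrocarbon receptor, had 4.07, 4.80, 7.31 and 7.87 in Ts13, against 2.45, 2.38, 2.45 and 3.42 in Wt. It was near the lowest signals of the array in Wt, and it was highest in the 2 arrays of degraded RNA. It reached the filter through its Ts13 signals alone, one of 4 such genes among the 278 of chromosome 13, all of them among the 166 above, so its call is a description and no support. Tspan17, a tetraspanin, had 8.87, 10.04, 5.99 and 5.21 in Ts13, against 7.26, 8.00, 8.04 and 7.50 in Wt. It was higher in both intact arrays, by 1.84 ± 0.24 (adjusted p = 0.0320), and lower in both degraded arrays, with -0.17 ± 0.97 over all 8.

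**Figure D3:**
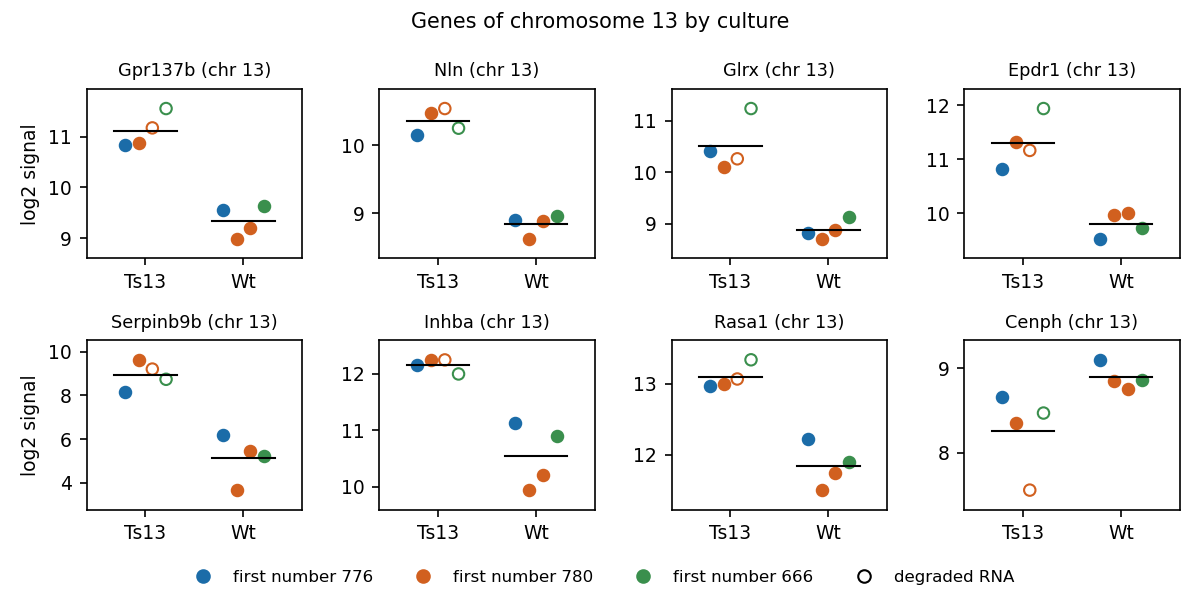
Log2 signal (vertical axis) of 8 chromosome 13 genes in the 4 Ts13 arrays (left) and the 4 Wt arrays (right) of each panel, coloured by first number, open for degraded RNA; bars are group means, and the vertical scale differs between panels and does not start at 0. Each Ts13 array of Gpr137b, Nln, Glrx, Epdr1, Serpinb9b, Inhba and Rasa1 stands above the Wt arrays of its own colour, and each of Cenph stands below.

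Other chromosome 13 genes differed by more than the 1.5-fold of the gene dose without passing the test. Serpinb9b, another member of the serpin cluster, had 8.16, 9.63, 9.21 and 8.74 in Ts13, against 6.21, 3.66, 5.48 and 5.25 in Wt. Its difference was 3.79 ± 0.62 with 8 arrays (adjusted p = 0.0925), and the groups did not overlap. Akr1c14, a hydroxysteroid dehydrogenase, had 7.25, 6.30, 8.23 and 8.79 in Ts13, against 3.46, 4.35, 4.82 and 3.92 in Wt, a difference of 3.50 ± 0.57. The sizes in Akr1c14 and Serpinb9b rest in part on low Wt signals, such as 3.46 in Wt 4 and 3.66 in Wt 5. Mboat1, a lysophospholipid acyltransferase, and Nqo2, a quinone reductase, had differences of 2.51 and 2.12 with 8 arrays. In each of these genes every Ts13 array lay above the Wt arrays of its own number. In all, 52 of 278 genes had an intact difference above 1, and 32 of these exceeded 1 in the 8-array fit too. Tested against 1.5-fold and adjusted over the 278 genes, 0 genes differed from the dose in either fit.

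Of 20 tested chromosome 13 genes in a list of metabolism, 17 had all Ts13 arrays above their own Wt, beside 59.7% of all tested chromosome 13 genes, and the list median was 1.25 with 8 arrays and 0.70 in the intact fit. Pfkp, the platelet form of the glycolytic enzyme phosphofructokinase, had 10.94, 11.29, 11.14 and 11.45 in Ts13, against 9.96, 9.41, 9.54 and 10.23 in Wt, a difference of 1.42 ± 0.20 (adjusted p = 0.0925). In a list of matrix, adhesion and lysosomal genes 7 of 9 lay above, beside the same 59.7%, with medians of 0.58 and 0.73. Ctsl, the lysosomal protease cathepsin L, had 14.81, 15.01, 14.62 and 14.61 in Ts13, against 14.13, 14.20, 14.28 and 14.11 in Wt, and did not overlap. Serpinb9, an inhibitor of granzyme B, and Lyst, a regulator of lysosome traffic, had differences of 1.28 and 1.36; with the mean of probe sets Lyst was at 0.50. The lists were chosen with results of these data known, so the counts are a description and not independent evidence.

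In a list of signalling and transcription genes 10 of 26 lay above in all arrays and 0 below, beside 59.7% and 0.719% of all tested chromosome 13 genes, with medians of 0.54 with 8 arrays and 0.35 in the intact fit. Inhba, the subunit of activin A, had 12.16, 12.24, 12.24 and 11.99 in Ts13, against 11.14, 9.94, 10.21 and 10.90 in Wt. Rasa1, a GTPase-activating protein that turns Ras off, had 12.97, 13.00, 13.07 and 13.34 in Ts13, against 12.22, 11.50, 11.74 and 11.90 in Wt. The differences were 1.61 ± 0.26 and 1.26 ± 0.17 with 8 arrays (adjusted p = 0.0925 for each), and neither gene overlapped. Klf6, a zinc finger transcription factor, differed by 0.79, but its probe sets differ in sign, and their mean gave 0.51. Il6st, the signal-transducing receptor chain of interleukin 6, had 12.59, 12.94, 12.74 and 12.77 in Ts13, against 12.24, 13.17, 12.86 and 12.62 in Wt. It was higher in Ts13 under MEF-776 and MEF-666 and lower under MEF-780, with a difference of 0.03 ± 0.16.

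In a list of cell cycle and DNA repair genes of chromosome 13, 8 of 17 lay above and 1 below, again beside 59.7% and 0.719% of the chromosome, with medians of 0.60 and 0.56. Cetn3, a centrin of the centriole, had 12.12, 12.15, 12.22 and 12.69 in Ts13, against 11.13, 11.12, 11.39 and 10.99 in Wt, a difference of 1.14 ± 0.19. Polk, a DNA polymerase that bypasses lesions, Rad17, a checkpoint clamp loader, and Kif2a, a kinesin that shortens microtubules, had differences of 1.34, 0.98 and 0.79 and no overlap. Cdk7, the kinase that activates other cyclin-dependent kinases, had 12.58, 13.02, 11.97 and 12.20 in Ts13, against 11.95, 11.94, 12.14 and 11.51 in Wt, so Ts13 3 lay between its controls. Gmnn, the replication inhibitor geminin, had an intact difference of -0.01 and one of 0.38 with 8 arrays.

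A minority of chromosome 13 genes was not higher. The intact difference was at or below 0 in 26 of 278 genes, the 8-array difference in 33, and both in 11. Cenph, a protein of the inner kinetochore, had 8.67, 8.35, 7.55 and 8.47 in Ts13, against 9.10, 8.85, 8.75 and 8.87 in Wt. Iqgap2, a scaffold of the actin cytoskeleton, had 5.62, 5.64, 5.66 and 5.65 in Ts13, against 5.69, 6.77, 6.73 and 7.24 in Wt. These were the 2 genes of the chromosome in which every Ts13 array lay below its own controls. Their differences were -0.63 and -0.97 with 8 arrays (adjusted p = 0.325 and 0.252). Under MEF-776 the difference of Iqgap2 was only -0.07, and its 4 Ts13 signals had an SD of 0.014. Whether these signals are the background of its probe set was not tested. Tgfbi, a secreted protein that TGF-beta induces, had 10.58, 10.67, 10.95 and 11.76 in Ts13, against 10.01, 12, 11.92 and 11.74 in Wt. Aspn, the matrix proteoglycan asporin, and Gas1, a membrane protein named for its expression in growth arrest, had differences of -0.56 and -0.49; both were chosen after their values were seen. All 3 were lower in Ts13 under MEF-780 and higher under MEF-776 and MEF-666, by the smallest margins under MEF-666.

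Complexes whose subunits are encoded on several chromosomes were read gene by gene. Of 33 tested oxidative phosphorylation genes, the 4 on chromosome 13 (Sdha, Ndufs4, Uqcrfs1 and Uqcrb) were the ones with all Ts13 arrays above their own Wt. Such separation held for 59.7% of tested chromosome 13 genes and 10.8% of genes elsewhere. Of the other 29 genes, 2 lay below in all arrays, beside 8.46% of genes off chromosome 13. The median of the 4 on chromosome 13 was 0.62 with 8 arrays and 0.46 in the intact fit. For the other 29 it was -0.13 and 0.03. Uqcrb, a subunit of complex III, had 14.63, 14.89, 14.94 and 14.97 in Ts13, against 14.41, 14.44, 14.50 and 14.46 in Wt. Uqcrfs1, the iron-sulphur subunit of the same complex, had a difference of 0.63 ± 0.16. Psma2, a subunit of the proteasome core on chromosome 13, had a difference of 0.68 ± 0.12 and no overlap. The other 30 proteasome genes had medians of -0.15 with 8 arrays and 0.09 intact. Of these 30, 1 gene, Psmd11, also lay above in all arrays. Hmgcs1 and Idi1, enzymes of cholesterol synthesis on chromosome 13, lay above in all arrays at 0.43 and 0.26, and 7 of 20 genes of that list elsewhere lay below in all, beside 8.46% of all genes off chromosome 13.

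Off chromosome 13, 22 genes were lower and 12 higher in the intact fit. Mdk, the heparin-binding growth factor midkine on chromosome 2, had 3.50, 4.32, 5.45 and 3.50 in Ts13, against 7.70, 8.79, 9.55 and 9.52 in Wt. All Ts13 arrays lay below all Wt arrays, by -4.57 ± 0.34 in the intact fit (adjusted p = 0.0041) and -4.70 ± 0.46 with 8 arrays (adjusted p = 0.0814). Mest, an imprinted gene expressed from the paternal copy on chromosome 6, had 8.97, 8.93, 9.29 and 9.13 in Ts13, against 11.23, 12.99, 13.15 and 12.56 in Wt. Its intact difference was -3.34 ± 0.38 (adjusted p = 0.0216), and the Ts13 arrays, degraded or not, lay within 0.36 of each other. Ptx3, the secreted pentraxin on chromosome 3, had 9.86, 11.28, 12.41 and 10.77 in Ts13, against 12.36, 14.03, 13.96 and 12.94 in Wt. It had the lowest adjusted p of the intact fit, 0.00186, at -2.62 ± 0.16, and was named for that after its values were seen. With the spread taken from all 15 intact arrays of the series, 3 genes passed. They were Mdk (adjusted p = 0.0075), Ptx3 (0.0122) and Cpxm2 (0.0197). Cpxm2 reached the filter through its Wt signals alone, so its call is no support for a difference.

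Of the tested matrix genes 4 passed as lower in the intact fit, Eln, Mfap4 and Fbn2 among them. Eln, which encodes elastin, had 5.12, 4.80, 7.96 and 5.89 in Ts13, against 8.23, 11.32, 11.14 and 11.16 in Wt. Mfap4, a microfibril-associated protein, had 6.10, 7.36, 7.05 and 5.19 in Ts13, against 8.65, 11.40, 10.67 and 10.76 in Wt. Both fell in the intact fit, with log2 differences of -5.01 and -3.19 (adjusted p = 0.0320 and 0.0203), and neither overlapped. Fbn2, fibrillin 2, had 11.01, 11.41, 10.22 and 9.07 in Ts13, against 12, 13.21, 13.09 and 13.23 in Wt, and also passed (adjusted p = 0.0375). Fbln1, fibulin 1, had a difference of -2.35 in the intact fit and did not pass (adjusted p = 0.0544). Of 46 tested matrix genes 13 lay below and 6 above their own Wt in all 4 arrays, shares to be read beside 8.17% and 12.6% of all genes, and the list median was -0.23 with 8 arrays and -0.07 in the intact fit.

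Igfbp5, Lpl and Slc7a3 also passed as lower. Igfbp5, a binding protein of insulin-like growth factors, had 10.37, 10.79, 11.86 and 9.44 in Ts13, against 12.59, 13.01, 12.59 and 12.14 in Wt, and passed in the intact fit (adjusted p = 0.0126). Lpl, the enzyme that releases fatty acids from lipoproteins, had 4.09, 8.28, 8.69 and 6.41 in Ts13, against 5.93, 11.19, 10.41 and 8.05 in Wt. Its level varied widely among cultures of either group, yet each Ts13 array lay below its own controls, by -2.23 ± 0.33 in the intact fit (adjusted p = 0.0385). Slc7a3, a transporter of cationic amino acids on the X chromosome, had 6.73, 7.08, 7.94 and 6.70 in Ts13, against 9.57, 9.38, 9.21 and 9.60 in Wt. Its differences under MEF-776 and MEF-666, where trisomic and control arrays had the same sex-linked transcripts, were -2.85 and -2.90. Slc1a5, a glutamine transporter, had -1.30 with 8 arrays, and 5 of 10 tested amino acid transporters lay below in all arrays, with 0 above, beside 8.17% and 12.6% of all genes. Dlk1, an imprinted relative of the Notch ligands, had 5.97, 4.69, 3.52 and 3.17 in Ts13, against 7.46, 9.32, 8.44 and 9.59 in Wt (adjusted p = 0.0946 with 8 arrays). Of 15 tested imprinted genes 8 lay below and 1, Impact, above, beside the same shares, with a list median of -0.67 with 8 arrays. By array the list median was -0.17, -0.80, -0.88 and -0.26 in Ts13 1 to Ts13 4, larger in size under MEF-780 than under MEF-776 and MEF-666.

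Chodl, a membrane lectin, Cpxm2, of the carboxypeptidase family, and Meox1, a homeobox transcription factor, were lower in the intact fit as well, with log2 differences of -3.81, -3.69 and -1.69. In Cpxm2, Ts13 3 had 6.24, between its controls at 6.22 and 6.74, while the other 3 Ts13 arrays had 2.39 to 3.24. Igfbp4 had a difference of -1.61 with 8 arrays and did not pass, and Igfbp7, a member of the same list, lay above in all 4 arrays at 0.81. Cpxm2 in Ts13 1 and Ts13 2 and Chodl in Ts13 1 had signals of 2.39 to 2.81, near the lowest of the array. The sizes of their differences rest on values near that floor. Low signals also stand behind the sizes in Mdk and Dlk1. Mdk had 3.50 in Ts13 1 and Ts13 4, and Dlk1 had 3.52 and 3.17 in Ts13 3 and Ts13 4. With the mean of all probe sets, Igfbp5 was at -0.81 and Igfbp4 at -2.48 with 8 arrays.

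**Figure D4:**
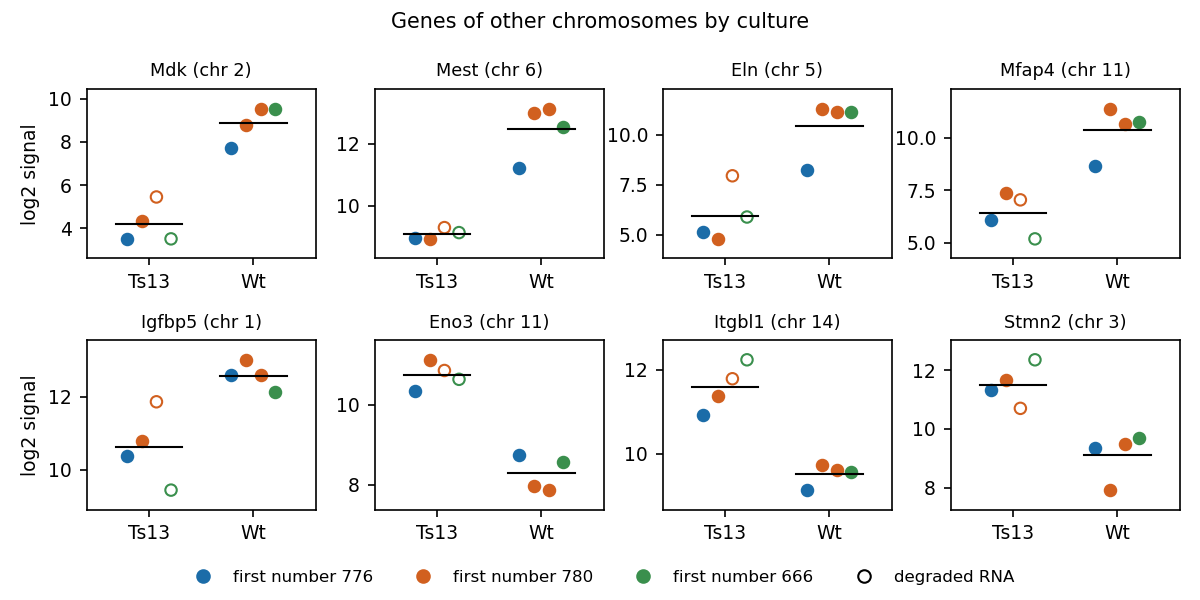
Log2 signal (vertical axis) of 8 genes of other chromosomes in the 4 Ts13 arrays (left) and the 4 Wt arrays (right) of each panel, coloured by first number, open for degraded RNA; bars are group means, and the vertical scale differs between panels and does not start at 0. Mdk, Mest, Eln, Mfap4 and Igfbp5 are lower and Eno3, Itgbl1 and Stmn2 higher in each Ts13 array than in the Wt arrays of its own colour.

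Among the genes of other chromosomes that were higher, Eno3, the muscle form of enolase, had 10.34, 11.12, 10.86 and 10.63 in Ts13, against 8.74, 7.97, 7.87 and 8.57 in Wt. Itgbl1, a secreted relative of the integrin beta chains, had 10.93, 11.36, 11.78 and 12.23 in Ts13, against 9.13, 9.72, 9.61 and 9.57 in Wt. Both rose in the intact fit, by 2.52 ± 0.36 and 1.74 ± 0.20 (adjusted p = 0.0375 and 0.0216), with no overlap. Reep1, a protein that shapes the endoplasmic reticulum, had 6.02, 5.97, 4.88 and 7.34 in Ts13, against 2.94, 3.10, 3.50 and 4.38 in Wt. It too reached the filter through its Ts13 signals alone, so its difference is given without a test. Ampd3, a deaminase of AMP, rose by 2.40 in the intact fit (adjusted p = 0.0467). Stk26, a kinase gene of the X chromosome, had 8.93, 7.46, 9.07 and 10.29 in Ts13, against 6.95, 2.67, 3.22 and 6.41 in Wt. Its differences were 1.98 under MEF-776 and 3.87 under MEF-666, and those under MEF-780 were 4.52 and 6.13. The sizes under MEF-780 rest on low signals of 2.67 and 3.22 in Wt 5 and Wt 6. Uchl1, a neuronal deubiquitinase, rose by 3.71 in the intact fit (adjusted p = 0.0326), but Ts13 4 had 7.03, against 7.76 in Wt 7.

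Stmn2, Bdnf and Acta1 were higher without passing. Stmn2, a microtubule regulator of neurons, had 11.32, 11.66, 10.70 and 12.35 in Ts13, against 9.35, 7.92, 9.49 and 9.69 in Wt. Bdnf, a neurotrophin, had a difference of 1.32 ± 0.22 with 8 arrays, and Acta1, skeletal muscle actin, one of 1.69 ± 0.61. In none of these 3 did a Ts13 array overlap with its own Wt. Gap43, a growth cone protein of the neural marker list, went the other way with 6.92, 7.81, 3.30 and 3.68 in Ts13, against 7.86, 8.13, 7.72 and 8.70 in Wt, and was lowest in the degraded arrays. Ncam1 and Nes of that list had differences of 0.49 and 0.46, which turned to -0.03 and -0.49 under MEF-776 and MEF-666 alone; with the mean of probe sets Ncam1 was at 0.09. Of the neural markers 3 to 5 of 14 reached a signal of 6 in the Ts13 arrays, against 4 or 5 in the Wt arrays, and Acta1 was the single one of 14 skeletal muscle markers to reach it on any of the 8 arrays. Of 14 smooth muscle markers 11 or 12 reached it in the Ts13 arrays, against 12 or 13 in the Wt arrays. In both intact arrays 10 of the 14 lay above and 1 below, beside 24.1% and 21.3% of all genes. In all 4 arrays 4 lay above and 0 below, beside 12.6% and 8.17%. The list median was 0.41 in the intact fit and 0.05 with 8 arrays. The epithelial marker Spint2, a protease inhibitor, differed by 1.80. It was the 1 of 3 tested epithelial markers with all Ts13 arrays above their own Wt. Krt19 differed by 1.35 but by -0.44 in Ts13 1, and Krt18 by -0.29. Of 11 epithelial markers 2 reached 6 in each Ts13 array, against 0 to 2 in the Wt arrays. The part of other cell types in these differences was not tested. Cystm1, St6gal1, a sialyltransferase, and Mfsd6, a transporter-like membrane protein, differed by 2.03, 2.52 and 2.10; with the mean of all probe sets St6gal1 was at 1.27 and Mfsd6 at 0.92. Lgals3, a galactose-binding lectin, Gsta4, a glutathione transferase, and S100a4, a calcium-binding protein of motile fibroblasts, differed by 1.00, 1.47 and 1.05 with no overlap. Their adjusted p lay between 0.0925 and 0.0946 with 8 arrays. S100a4 is of the fibroblast marker list, in which 2 of 15 tested genes lay above and 4 below in all arrays. Of all genes, 12.6% lay above and 8.17% below. The list median was -0.23 with 8 arrays, and Pdgfra, Dcn and Ddr2 of that list had -1.09, -1.33 and -1.36.

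Genes of cell division were lower in all 4 trisomic cultures as a group. Of 33 tested mitotic genes 20 lay below and 0 above their own Wt in all 4 Ts13 arrays, beside 8.17% of all genes below. The median of the list was -0.70, -0.55, -0.68 and -0.30 in Ts13 1 to Ts13 4, against -0.09, 0.15, 0.08 and 0.04 for all genes. In the intact arrays 31 of the 33 lay below, beside 21.3% of all genes. Ccna2, the cyclin of S phase and early mitosis, had 9.95, 9.32, 9.70 and 10.23 in Ts13, against 10.78, 10.55, 10.60 and 11.12 in Wt. Birc5, survivin of the chromosomal passenger complex, Cenpe, a kinetochore motor, and Top2a, the topoisomerase that untangles chromosomes, had differences of -0.90, -2.38 and -0.75; with the mean of probe sets Top2a was at -0.36. No mitotic gene passed in either fit, and the lowest adjusted p of these 4 was 0.0946 with 8 arrays.

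Genes of DNA replication behaved alike. Of 41 tested genes 18 lay below and 0 above in all 4 arrays, beside 8.17% and 12.6% of all genes, and the list median was -0.55, -0.40, -0.30 and -0.47 in Ts13 1 to Ts13 4. Mcm3, a subunit of the replicative helicase, had 9.95, 9.49, 9.51 and 9.01 in Ts13, against 10.56, 10.15, 10.13 and 10.87 in Wt. Pold2, a subunit of DNA polymerase delta, Rfc5, of the clamp loader, and Uhrf1, which maintains DNA methylation, had differences of -1.32, -0.93 and -0.89; with the mean of probe sets Uhrf1 was at -1.88. Of 12 condensin and cohesin genes all 12 lay below in the intact arrays and 4 in all arrays, beside 21.3% and 8.17% of all genes, and the median was -0.42 in the intact fit but 0.30 in Ts13 4. None of these genes passed the test.

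Other lists differed less, or differed between the intact and the degraded arrays. The median of 21 Nrf2 target genes was 0.06 and 0.68 in the intact arrays and -0.60 and -1.04 in the degraded ones. The Gapdh differences there were 6.94 and 5.57, and their part in it was not tested. Of the 21 genes, 7 lay above and 2 below in all 4 arrays, beside 12.6% and 8.17% of all genes. In both intact arrays 12 lay above and 2 below, beside 24.1% and 21.3%. The median of 27 lysosomal genes was 0.32 in the intact fit, with 18 above in both intact arrays beside 24.1% of all genes, and 0.06 with 8 arrays. Of 13 tested interferon-response genes 3 lay above in all arrays and 0 below, beside 12.6% and 8.17% of all genes. Of 33 ribosomal protein genes 7 lay below and 0 above, beside the same shares, at a median of -0.11. Among stress and glucose genes, Hspa4l and Cryab, both chaperones, Dusp1, a phosphatase of MAP kinases, and Slc2a1, the glucose carrier, had differences of 1.97, 1.13, 1.05 and 0.73; with the mean of probe sets Cryab was at 0.49. Slc16a1, a lactate carrier, had -0.84. Each of these 5 genes separated every Ts13 array from its own Wt, and none passed. Such separation held for 12.6% of all genes above and 8.17% below. The lists they came from were of 24 chaperone, 22 serum-response and 25 glycolysis genes. Of these, 5, 3 and 5 lay above and 1, 0 and 1 below in all arrays. The list medians were -0.005, -0.031 and -0.118 with 8 arrays.

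**Figure D5:**
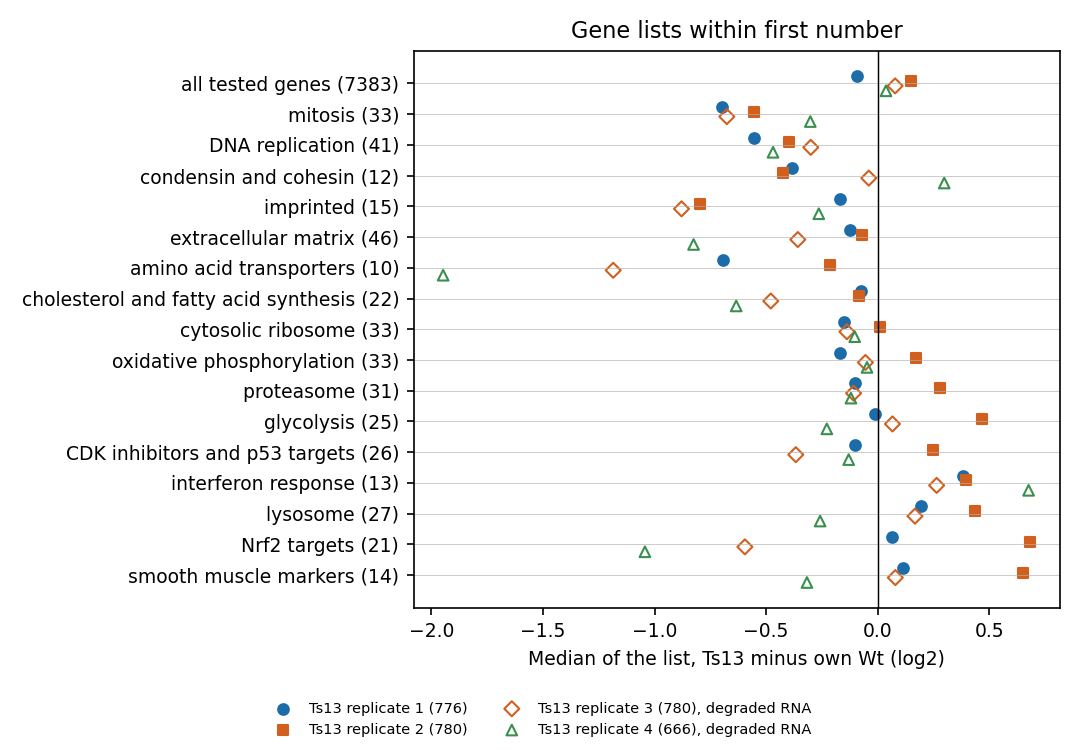
Median of each gene list (rows, number of tested genes in brackets) as the log2 difference, Ts13 minus own Wt (horizontal axis), one symbol per trisomic array, coloured by first number and open for degraded RNA. The mitosis and DNA replication lists lie between -0.70 and -0.30 in all 4 arrays, while the Nrf2 list is at 0.06 and 0.68 in the filled and -0.60 and -1.04 in the open symbols.

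The trisomic cultures also differed from each other. Under MEF-780, Ts13 2 minus Ts13 3 had an SD over all tested genes of 1.36 on the log2 scale, against 0.37 for Wt 5 minus Wt 6. Of 7383 genes 32% differed by more than 1 in either direction between the 2 Ts13 arrays and 2.21% between the Wt arrays. The chromosome 13 median of the first pair was -0.20 and that of the second -0.13. The Ts13 arrays differ in 3' bias, and the part of culture and of this bias in their spread cannot be told apart.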

How the data were processed

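The deposited values are log2 expression values per probe set, which the authors made with GCRMA and affy, per the submitters' processing notes; the sources used here state no versions or settings. Of 22690 probe sets, 64 are controls, and 20393 have exactly 1 gene in the platform annotation (691 have several and 1606 none). Chromosomes came from RefSeq (GRCm38.p6) by Entrez identifier. The probe set with the highest mean stood for a gene, which gave 12394 genes, and 7383 with a mean log2 of at least 4 over the 8 arrays were tested.

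Fits used limma 3.58.1 in R 4.3.3 (lmFit, eBayes with trend), with the first number as a block, 4 residual degrees of freedom with 8 arrays and 2 in the intact fit, two-sided, and Benjamini-Hochberg adjustment over all tested genes. Chromosome 13 genes were also tested against 1.5-fold. Same-number deviations of Ts13 and Wt arrays had correlations of -0.14 to 0.26, so the number is not shown to pair samples; the block follows the comparison asked for. Named genes are those passing with the largest change, those with the widest separation of Ts13 from own Wt at a mean log2 of at least 6, and list members by p or in the order written; others are marked. Not all genes so listed are named. Members and lists were chosen with earlier results of these data known. The fits were tested on simulated data: the share of false calls met the threshold where the spread of genes followed limma's model and exceeded it in the intact fit where it did not, so its 42 calls may hold more false ones than 0.05 states. Arrays give no counting depth, and their number limits the precision. Alternatives were other filters, probe set rules, scalings, blocks, controls, array weights, a Gapdh covariate and left-out arrays.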

Additional observations from a re-analysis of the deposited data

Results flagged for a closer look

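Among the genes named, each with 4 Ts13 and 4 Wt arrays, 168 groups of 4 were examined for an array far from the other 3, which chance alone flags in about 1 of 20 groups; 10 groups held one. On chromosome 13, Wt 7 stood above the other Wt arrays in Ahrr, at 3.42 against 2.38 to 2.45, and in Mboat1, at 6.09 against 4.74 to 4.80. Wt 4 stood above them in Klf6, at 12.31 against 11.89 to 11.93, and below them in Tgfbi, at 10.01 against 11.74 to 12. Ts13 2 stood above the other Ts13 arrays in Uqcrfs1, at 12.74 against 12.35 to 12.40. Elsewhere, Wt 4 stood below the other Wt arrays in Eln, at 8.23 against 11.14 to 11.32, and in Fbn2, at 12 against 13.09 to 13.23. Wt 7 stood above them in Spint2, at 6.33 against 5.74 to 5.80, and in Mfsd6, at 6.81 against 6 to 6.12. Wt 5 stood below them in S100a4, at 13.47 against 14.06 to 14.18.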

How the results depend on the processing

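The chromosome 13 shift stayed positive under each alternative, at 0.72 to 0.90 with an array left out, 0.81 with no replicate block, and 0.52 without the filter. The 0 genes passing with 8 arrays became 4 with no replicate block (Eno3, Mest, Mdk and Nln), 4 with a random block, 3 with all 18 arrays, 210 against all 9 Wt arrays, 4 with array weights and 1 with the Gapdh covariate, and 0 to 2 with an array left out. The 42 genes of the intact fit became 0 with no replicate block, 4 with a random block, 3 with the spread of 15 arrays, 367 without a filter, 180 with a mean log2 of at least 6, 3 with the mean of probe sets, 10 with centred arrays, 7 after quantile normalization, 8 without a trend, 20 with array weights, and 0 to 320 with an array left out (0 without Ts13 2, 13 without Ts13 1 or Wt 4, 114 without Wt 5 and 320 without Wt 6). Genes differing from 1.5-fold numbered 8 against all 9 Wt arrays, 166 without a filter, and 0 to 2 with an array left out; in the intact fit they numbered 224 and 0 to 17. Centring moved the median of all genes to 0.35. Tspan17 turned positive at 0.27 (mean of probe sets), 0.17 (centred or quantile), 0.24 (weights), 1.59 (Gapdh) and ranged from -1.02 to 0.60 with an array left out. Tgfbi turned positive at 0.51 against all 9 Wt arrays. Under MEF-776 and MEF-666 alone, added after the data were seen, Tgfbi was at 0.29, Aspn at 0.13, Gas1 at 0.14, Ncam1 at -0.03 and Nes at -0.495. Il6st turned negative at -1.17 with the mean of probe sets and ranged from -0.068 to 0.138 with an array left out. Nes ranged from -0.263 to 0.946 with an array left out. The mean of probe sets moved the differences of 14 named genes, Tspan17 and Il6st included, by over 1.5 times. The causes were not tested.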
